A study of Mus musculus with 2 samples.

Results

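The lysosomal genes described here are 37 genes chosen by name: 9 proteases (most of them cathepsins), the cathepsin inhibitor Cst3, 8 glycosidases, 5 genes of lipid breakdown and cholesterol export, 5 genes of the lysosomal membrane, the secreted factor Grn, the transcription factor Tfeb, and 7 genes of the proton pump. Each was found once by its symbol among the 55536 gene rows of the deposited tables. They were measured by poly(A) RNA sequencing of the left cerebral cortex of B6NCrl mice (a C57BL/6 substrain) aged 6 months, without any treatment or genetic change named in the labels, starting with 20 ng of RNA and cutting the cDNA by Nextera tagmentation (a transposase that adds tags as it cuts). The series has 1 group with 2 libraries, numbered as biological replicates 1 and 2. Both carry the same donor entry, so that separate animals rest on the replicate numbers alone, and the tissue is described as male in one field while another gives the sex as not collected. No conditions were compared, and with 1 library against 1 no test was run: every spread below is the difference between these libraries, which may be technical.

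The lysosome is the acidic compartment in which cells break down proteins, glycans and lipids that arrive by endocytosis and autophagy. Its enzymes are made in the endoplasmic reticulum, mostly tagged with mannose 6-phosphate, and work at the low pH that the vacuolar proton pump maintains by spending ATP. Neurons do not divide and cannot dilute undegraded material, and inherited loss of many of these enzymes in humans causes storage diseases that damage the brain.

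Many lysosomal promoters carry a short palindrome, the CLEAR element, which TFEB and the related factors TFE3 and MITF bind in human cells. The palindrome is nested: its 6-base core CACGTG lies inside the 8-base TCACGTGA, which in the full 10-base form has a G before it and a C after it, and each reads the same on both strands. Windows covering 250 bases before to 50 bases after the annotated start were taken from RefSeq (build GRCm38.p6) for 31 of the 37 genes. Asah1, Atp6v1b2, Atp6v1h, Ctsb, Ctsh and Npc1 had no window. The stretches below are shown because they hold the 8-base motif, or in Lamp1 the repeated core, with the motif in capitals.
Mcoln1 (chr8:3500457-3500496, + strand): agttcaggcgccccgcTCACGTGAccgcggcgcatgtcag
Ctsd (chr7:142387903-142387942, - strand): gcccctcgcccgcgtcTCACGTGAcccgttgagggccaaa
Cln3 (chr7:126583335-126583374, - strand): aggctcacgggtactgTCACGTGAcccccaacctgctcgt
Atp6v0d1 (chr8:105566045-105566084, - strand): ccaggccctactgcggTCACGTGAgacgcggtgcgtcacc
Atp6v1a (chr16:44139368-44139407, - strand): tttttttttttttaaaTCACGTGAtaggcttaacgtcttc
Lamp1 (chr8:13159094-13159157, + strand): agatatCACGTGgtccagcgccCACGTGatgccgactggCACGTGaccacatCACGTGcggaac

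The 8-base motif was present in the windows of 7 of 31 lysosomal genes (22.6%), namely Atp6v0d1, Atp6v1a, Cln3, Ctsa, Ctsd, Gla and Mcoln1. Among 9743 protein coding genes detected in both cortex libraries and given a window, 2.25% held it, and 1.12% of all 27025 genes with a RefSeq promoter did. A list of further lysosomal genes, lay in between, with 7 of 66 genes that had a window (10.6%). The core was present in 14 of the 31 genes (45.2%), against 18.2% of the further lysosomal genes, 11.9% of the detected coding genes and 8.09% of all genes. The full 10-base form was present in Cln3 alone among the 31 and in 1 of the 66, against 0.760% of the detected coding genes and 0.370% of all genes. The CLEAR element was first described from lysosomal promoters of humans, whose genes are counterparts of several counted here, so the share does not stand as independent evidence for it. A match is a string of letters in a window and does not show that a factor binds there.

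Lamp1 held 4 copies of the core, centred at -58, -42, -25 and -12 bases from its start. That many copies occurred in 8 of 32851 windows, belonging to 6 genes. None of the Lamp1 copies was extended to the 8-base form. The motif in Atp6v0d1 was centred on the annotated start itself, that in Mcoln1 at -42, in Ctsd at -95, in Cln3 at -118 and in Atp6v1a at -128, while Ctsa and Gla each held a pair of 8-base motifs. Genes with the motif had low and high levels. The 4 highest genes with a window (Cst3, Atp6v0c, Atp6v1e1 and Psap) lacked it, and the next highest, Ctsd, held it. With the motif the median level was 91.2 TPM (n = 7 genes; TPM is the authors' level per transcript length, scaled to one total in every library), with a range between 2.18 TPM (Gla) and 389.9 TPM (Ctsd), against a median of 79.0 TPM in the 24 genes whose windows lacked it.

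**Figure D1:**
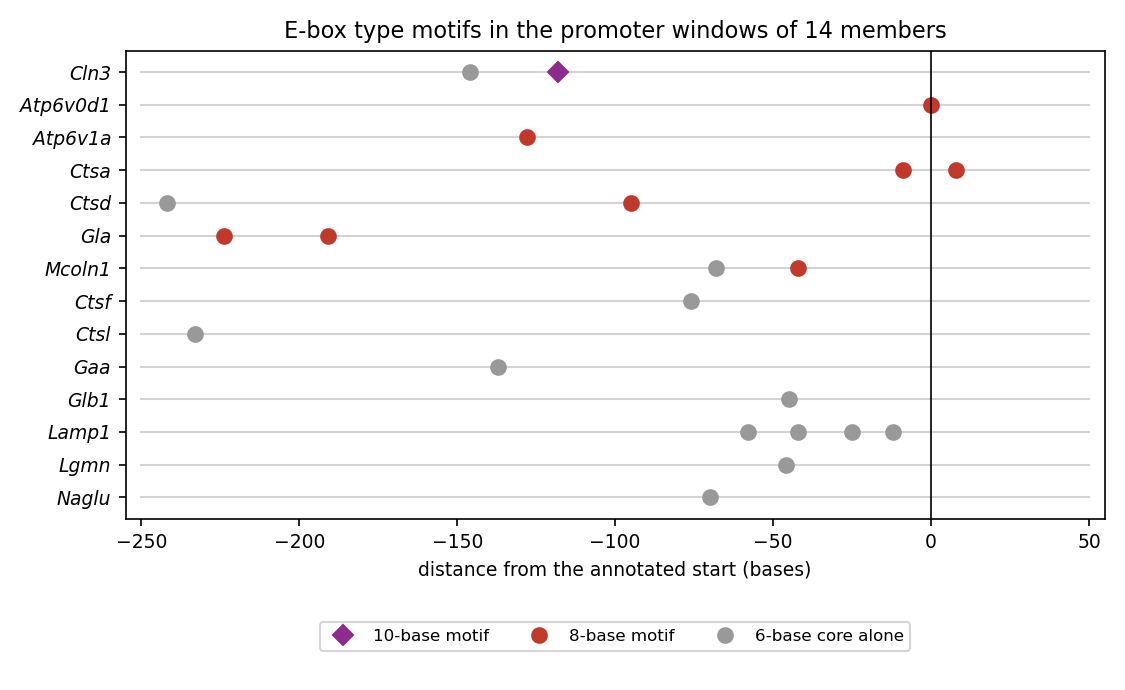
Positions of the nested motifs in the RefSeq promoter windows of the 14 lysosomal genes that hold the core; the x axis is the distance in bases from the annotated start, each row is 1 gene and each point 1 motif, marked by the longest form present. The 4 copies in Lamp1 lie close together just before its start, and the 10-base form is seen in Cln3.

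Depth differed between the libraries, with 51888490 gene fragments for replicate 1 and 26776276 for replicate 2. Markers of neurons, astrocytes, oligodendrocytes and microglia were detected in both libraries, as cortex should show, with medians of 235 and 162 TPM for 5 neuron genes in replicates 1 and 2, and 46.1 and 47.8 TPM for 8 microglia genes. Of all 14649 genes with a mean of at least 1 CPM (fragments scaled to a common library total), 14638 had a GC content. Across these, the ratio of replicate 1 over replicate 2 moved with GC content (Spearman's rho 0.307 across genes). The 4 hemoglobin genes summed to 78.2 TPM in replicate 1 and 38.8 TPM in replicate 2, and 3 of them were at least 1.5-fold higher in replicate 1. The part of these differences in the results below was not tested. In bulk tissue, fewer cells of a type and less RNA per cell cannot be told apart.

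All 37 genes were detected, at 1 TPM or more in both libraries, with at least 181 fragments in replicate 1 and 104 in replicate 2. By mean level, 29 lay above the median of the 12431 detected protein coding genes (14.2 TPM) and 12 above their 90th percentile. Together they made up 1.65% and 1.44% of all TPM in replicates 1 and 2. Cst3 alone was 65.2% and 57.0% of that sum. Ordered by mean level, the genes formed 36 neighbouring pairs, and in 24 of these the ranges over both libraries overlapped, so that most places in the order were not separated. Cst3 over Atp6v0c, and Atp6v0c over Atp6v1e1, were among the 12 pairs that did not overlap.

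**Figure D2:**
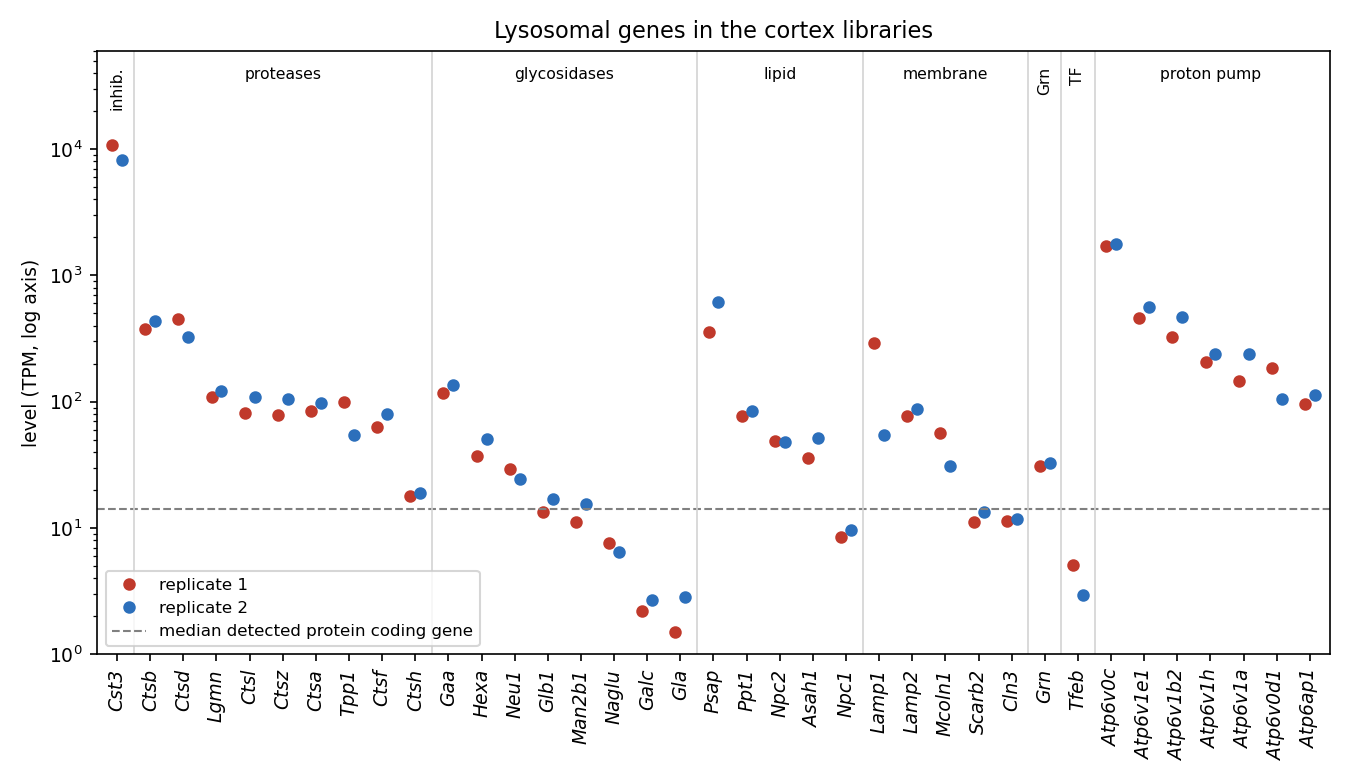
Level of the 37 lysosomal genes in each cortex library (TPM, log axis), grouped by role; each point is 1 library, replicate 1 at left in red and replicate 2 in blue, and the dashed line is the median detected protein coding gene (14.2 TPM). Cst3 and the pump gene Atp6v0c stand highest, Galc and Gla lowest, and the libraries are farthest apart for Lamp1.

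Cst3 encodes cystatin C, a secreted inhibitor of cysteine cathepsins, and was the highest of the genes at 10739 TPM in replicate 1 and 8187 TPM in replicate 2. This was 7.88 and 6.05 times the summed level of the 9 proteases, which was 1362 and 1352 TPM. The sum includes proteases that are not cysteine cathepsins, such as Ctsd and Ctsa, and transcripts with no coding label. It is therefore not the level of the cathepsins that cystatin C inhibits. All these values are transcript levels per length and say nothing of protein amounts. Its coding transcript Cst3-201 held 99.96% and 99.97% of its TPM (mean 9463 ± 1804 TPM for the gene, SD, n = 2).

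Among the proteases, the cysteine protease Ctsb and the aspartic protease Ctsd were highest and together held 60.8% and 56.6% of the summed TPM in replicates 1 and 2. Ctsb was at 375 TPM in replicate 1 and 439 TPM in replicate 2, and Ctsd at 453 TPM and 326 TPM, so the libraries gave opposite orders for the pair. With coding transcripts alone Ctsd was the higher in both, by 2.26 and 1.66 times. Legumain (Lgmn), which cleaves after asparagine and processes other cathepsins, reached 109 and 121 TPM. Ctsl, a broad endopeptidase, was at 81.2 and 109 TPM, the carboxypeptidase Ctsz at 79.0 and 105 TPM, and Ctsf at 62.9 and 79.5 TPM. Ctsa, a serine carboxypeptidase that also protects Glb1 and Neu1 in a complex, was at 84.0 and 98.4 TPM. The aminopeptidase Ctsh was lowest at 17.9 and 18.8 TPM (mean 18.3 ± 0.6, SD, n = 2). With coding transcripts alone Ctsh was at 9.8 and 12.5 TPM and the protease Tpp1 at 10.4 and 10.7 TPM, so their ranges overlapped.

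The 8 glycosidases, which trim sugars from glycoproteins, glycolipids and glycogen, formed the lowest of the enzyme groups, with a median of 12.2 TPM in replicate 1 and 16.3 TPM in replicate 2, against 84.0 and 105 TPM for the proteases. Gaa, which degrades glycogen, stood apart from the rest at 117 and 137 TPM. Hexa, the alpha subunit of the hexosaminidase that degrades the ganglioside GM2, followed at 37 and 50.4 TPM, and the sialidase Neu1 at 29.5 and 24.6 TPM. The beta-galactosidase Glb1 (mean 15.2 TPM), the alpha-mannosidase Man2b1 (13.3 TPM) and Naglu (7.05 TPM), which acts on heparan sulfate, lay close to or below the median coding gene. Galc, which degrades the myelin lipid galactosylceramide, was at 2.19 and 2.72 TPM. Gla, the alpha-galactosidase, was at 1.5 and 2.87 TPM and had the lowest mean of the whole set (2.18 TPM), though Galc was lower in replicate 2 and their ranges overlapped. Its fragments, 181 and 104, hardly differed after scaling (log2 ratio of replicate 1 over replicate 2, -0.06), and the gap in TPM came from 5.61 fragments that were given to a 337-base transcript, Gla-202, in replicate 2.

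Of the 5 genes of lipid handling, Psap was highest at 358 TPM in replicate 1 and 619 TPM in replicate 2. It encodes prosaposin, the precursor of the saposins that present lipids to glycosidases. The thioesterase Ppt1, which removes fatty acids from proteins, was at 77.3 and 84.1 TPM, and the ceramidase Asah1 at 36.0 and 51.4 TPM. Npc2 and Npc1 hand cholesterol on for export: the soluble Npc2 was at 48.9 and 48.4 TPM, the membrane protein Npc1 at 8.45 and 9.65 TPM. Npc2 thus exceeded Npc1 by 5.79 and 5.01 times, per length. With coding transcripts alone, a count added after seeing the data, the ratios were 6.96 and 10.6. Grn, the secreted progranulin, which reaches the lysosome and is cut into granulins there, was at 30.8 and 32.9 TPM (mean 31.8 ± 1.5, SD, n = 2).

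In the membrane group, Lamp1 and Lamp2 encode the abundant glycoproteins that line the lysosome. Lamp2 was at 76.7 TPM in replicate 1 and 87.4 TPM in replicate 2, while Lamp1 was at 294 TPM and 54.9 TPM. Their order therefore depended on the library, Lamp1 being 3.83 times Lamp2 in replicate 1 and 0.628 times in replicate 2. The cation channel Mcoln1, which releases calcium from the lysosome, was at 56.8 and 30.9 TPM. Scarb2, which carries glucocerebrosidase to the lysosome, was at 11.2 and 13.3 TPM, and Cln3, mutated in a human juvenile storage disease, at 11.4 and 11.9 TPM. Tfeb, a factor that binds the CLEAR element, was near the bottom of the set with 5.10 TPM in replicate 1 and 2.93 TPM in replicate 2.

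The proton pump was the highest of the groups with several genes, with a median of 207 TPM in replicate 1 and 241 TPM in replicate 2. It has a V0 sector in the membrane, whose ring of c subunits carries the protons, and a V1 sector that hydrolyses ATP. Atp6v0c, the c subunit, was at 1696 and 1786 TPM (mean 1741 ± 64, SD, n = 2). The catalytic subunit A (Atp6v1a) was at 147 and 241 TPM and its partner B (Atp6v1b2) at 328 and 465 TPM, so that B exceeded A by 2.24 and 1.93 times. The stalk subunit E (Atp6v1e1) reached 464 and 563 TPM, and the regulatory subunit H (Atp6v1h) 207 and 239 TPM. Atp6v0d1, the d subunit that joins both sectors, was at 186 and 105 TPM, and the accessory subunit Atp6ap1 at 96.1 and 112 TPM. A processed pseudogene, Atp6v0c-ps2, shared 404 words of 31 bases with Atp6v0c and was listed at 9.07 and 10.7 TPM, far under the gene itself.

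With the 19 other pump genes added, each subunit with several genes had most of its TPM from 1 of them. For subunit a, Atp6v0a1 held 89.9% and 81.8% of the TPM of its 4 genes in replicates 1 and 2, and Atp6v0a2 most of the rest. Atp6v0e2 held 81.1% and 84.9% of subunit e, and Atp6v1c1 99.9% and 99.7% of subunit C. Subunit G was the most evenly divided, with 70.6% and 65.8% from Atp6v1g2, the form known from neurons, and 29.4% and 34.2% from the widely used Atp6v1g1. No fragment was counted for Atp6v0d2, Atp6v1b1 and Atp6v1g3, forms known from bone, kidney or other epithelia, in either gene table, and Atp6v1e2, known from testis, had 1 fragment in replicate 1. The neighbouring c'' subunit (Atp6v0b) and subunit F (Atp6v1f) were the highest of the other pump genes, at 653 and 665 TPM in replicate 1 and 857 and 734 TPM in replicate 2.

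**Figure D3:**
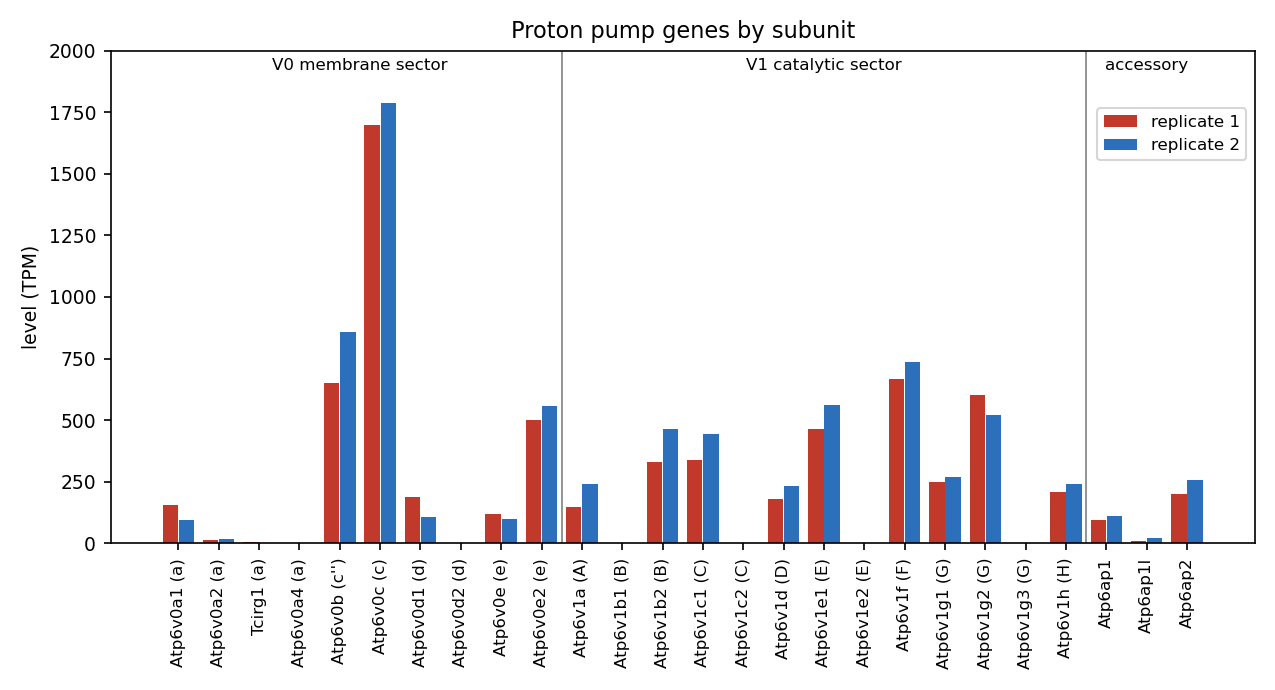
Level of 26 proton pump genes in each cortex library (TPM), with the subunit letter in brackets; bars are single libraries, replicate 1 at left in red and replicate 2 in blue. Atp6v0c exceeds the other genes, and the alternative genes of subunits B, d, E and C are at or near 0 beside their counterparts.

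The 87 further lysosomal genes placed the 37 among their neighbours. Of these, 77 were detected. Among the proteases, Ctss, a cathepsin known from microglia, was highest at 107 and 123 TPM, followed by Cpq at a mean of 22.7 TPM, while Ctse, which was listed at 0 in both gene tables, was lowest. Of the other glycosidases and sulfatases, the sulfatase Ids was at 78.9 and 52.0 TPM. Pld3, a membrane nuclease, led the other lipid genes with 444 and 442 TPM, ahead of the sphingomyelinase Smpd1 with 79.4 and 74.5 TPM. The other membrane proteins were led by Lamp5, known from neurons, at 225 and 279 TPM and by Laptm4b at 140 and 165 TPM, with the channel Tpcn2 lowest at 0.42 and 0.47 TPM. Of the sorting machinery, Gnptg, a subunit of the enzyme that builds the mannose 6-phosphate tag, was at 96.2 and 91.8 TPM and the receptor M6pr at 76.7 and 88.6 TPM. Of the regulators, Lamtor1 was at 228 and 180 TPM and Rraga at 25.2 and 92.1 TPM. Both belong to the machinery that recruits the kinase mTORC1 to the lysosome, and Tfec, a relative of Tfeb, was listed at 0 in both libraries.

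Between the libraries, 20 of the 37 genes lay within 1.2-fold, a share near that of all tested genes (50.7%). The comparison used fragments scaled by TMM and a pseudocount of 0.5 CPM, and a gene was called apart at 1.5-fold or more, which is 0.58 on the log2 scale. That line was passed by 5 genes. Lamp1, Mcoln1, Tfeb and Atp6v0d1 were higher in replicate 1, that is 4 of 37, where 16.1% of all tested genes were, and Psap was lower in replicate 1, that is 1 of 37, where 3.97% were. Either way 13.5% of the lysosomal genes were apart and 20.1% of all genes, so the count is near the background and is not a result about these genes. The median log2 ratio was -0.06 for the 37 and -0.004 for all genes, and the median size of the log2 ratio 0.25 and 0.26. Of the 37 genes, 23 had a ratio below 0 (62.2%, against 50.4% of all genes). Among them were 6 of 9 proteases, 6 of 8 glycosidases, 6 of 7 pump genes, 3 of 5 lipid genes and 2 of 5 membrane genes. Cst3, Grn and Tfeb were above 0. The number below 0 was 21 with no filter on low counts and 25 with total counts. Whether it sets these genes apart was not tested.

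**Figure D4:**
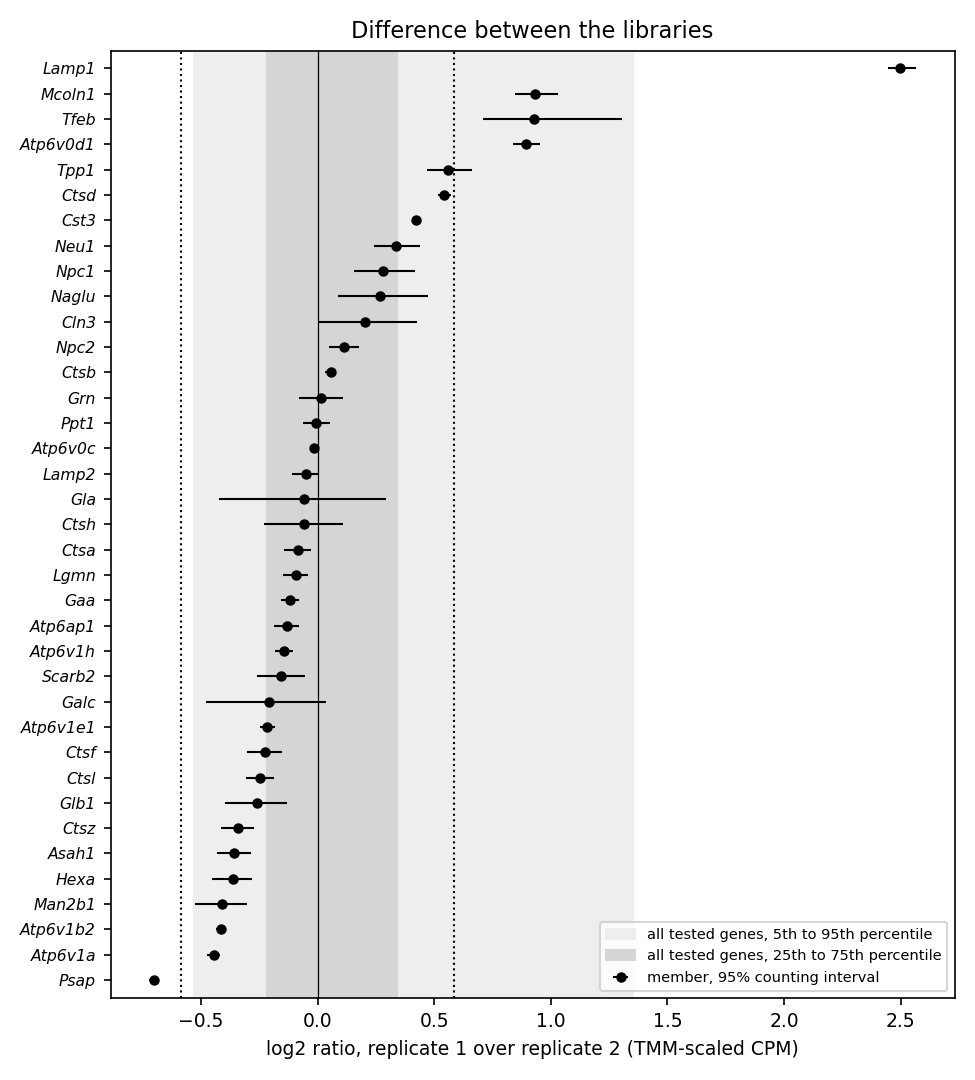
Log2 ratio of replicate 1 over replicate 2 for each lysosomal gene (x axis, TMM-scaled CPM), with 95% Clopper-Pearson intervals that cover counting error only; the grey bands run between the 25th and 75th and between the 5th and 95th percentiles of all 14649 tested genes, and dotted lines mark 1.5-fold. Lamp1 lies far to the right of the band, Psap just left of it, and 32 genes lie between the lines.

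Lamp1 (chr8:13159161-13175338, + strand, mm10) stood farthest apart. It had 24375 fragments in replicate 1 and 2354 in replicate 2, a scaled ratio of 5.65-fold (log2 2.50, counting interval 2.44 to 2.57). Across all tested genes, 0.901% had a ratio as high or higher. The second quantification, made by the authors from the reads by another route, gave 208 TPM in replicate 1 and 45.3 TPM in replicate 2, so the gap was of like size there. Its coding transcript Lamp1-201 held 100% of the TPM in replicate 1 and 99.8% in replicate 2, and the ratio stayed at 2.47 once the trend on GC content and length was removed. The gene Grtp1 overlaps 249 of its exon bases on the other strand and was at 3.13 TPM in replicate 1 and 3.09 TPM in replicate 2. Lamp2, its close relative, had a log2 ratio of -0.05. Rraga and Sort1, among the further lysosomal genes, were also far apart, at log2 ratios of -1.78 and 1.75 (Sort1 is named after its value was seen).

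Mcoln1 (chr8:3500457-3515232) had 4227 fragments in replicate 1 and 1209 in replicate 2, a ratio of 1.91-fold (log2 0.93, interval 0.85 to 1.03). Atp6v0d1 (chr8:105524465-105566047) had 10961 and 3230 fragments, a ratio of 1.86-fold (log2 0.89, interval 0.84 to 0.95). Neither was unusual among all genes, of which 9.29% and 9.90% had ratios as high. The other pump genes of the set had ratios between -0.45 and -0.02. Among further genes of the membrane sector, Atp6v0a1 was higher in replicate 1 (log2 ratio 0.79), Tcirg1 and Atp6v0e were at 0.30 and 0.28, and Atp6v0b, Atp6v0a2 and Atp6v0e2 were at -0.38, -0.24 and -0.07. Tfeb (chr17:47737030-47792419) had 442 and 121 fragments (log2 0.93, interval 0.71 to 1.30). Its transcripts have a GC content of 63.0%, the highest among the 37, and its ratio was 0.36, below the 1.5-fold line, once the trend on GC content and length was removed.

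Psap (chr10:60277627-60302597) was the 1 gene lower in replicate 1, with 35856 fragments there and 31984 in the shallower replicate 2, which is a log2 ratio of -0.70 (interval -0.72 to -0.68). A ratio as low or lower was found in 2.18% of all tested genes. Just inside the line were Tpp1, at a log2 ratio of 0.56, and Ctsd at 0.54, both higher in replicate 1. On the second quantification the same 5 genes were apart, where 15.4% of 15140 tested genes were at least 1.5-fold higher in replicate 1, 3.88% lower and 19.3% either way. On the gene tables, 7 of the 77 further lysosomal genes tested were at least 1.5-fold higher in replicate 1, where 16.1% of all tested genes were. They were Abca2, Clcn6, Tpcn1, Sort1, Gnptab, Tfe3 and Atp6v0a1 (named after their values were seen). Another 2 were lower (Rraga and Atp6ap1l), where 3.97% of all tested genes were. Neither share was above that of all genes, so these counts are not a result about the further genes. Beside the 20.1% of all genes that passed the line either way, 0 of 8 microglia, 0 of 5 astrocyte, 0 of 5 oligodendrocyte, 0 of 4 mural and 1 of 4 endothelial markers did. Of 5 neuron markers, Rbfox3 and Slc17a7 were past it, at log2 ratios of 0.86 and 1.25, while Gad1, Snap25 and Syt1 were at -0.32, -0.16 and 0.07.

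At a mean of at least 5 TPM, 34 lysosomal genes were left to compare between the gene tables and the second quantification. The gene tables gave them higher TPM, by a median log2 ratio of 0.46 in replicate 1 and 0.33 in replicate 2. None was 1.5-fold apart in the same direction in both libraries, where 2.32% of 10108 genes were higher and 0.643% lower in the gene tables. Among so few genes, none apart is near those shares and is not a result about them. Since the gene tables gave higher TPM in general, by a median log2 ratio of 0.40 in replicate 1 and 0.28 in replicate 2, ratios were also centred on the median gene, and again none of the 34 was apart, against 1.46% higher and 1.11% lower among all genes.

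For most genes the same transcript led in both libraries, though not for Ctsb, Ctsh, Lgmn and Npc1. Of the 37 genes, 35 have several annotated transcripts, up to 19 in Cln3, and for 33 the transcript with the highest TPM was the same in both libraries. In 33 it was a protein coding one in both. Coding transcripts held at least 90% of the TPM in both libraries in 29 genes. Transcript sequences were read from the GENCODE M21 transcripts (mm10) for 3 genes in which coding transcripts shared the TPM, with the bases that set them apart in capitals.
Psap-205 with the alternative exon (chr10:60297537-60297545, + strand): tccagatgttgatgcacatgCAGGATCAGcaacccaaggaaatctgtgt
Psap-202 without it: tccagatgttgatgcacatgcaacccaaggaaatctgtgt
Atp6v1h-201 with the alternative exon (chr1:5101070-5101123, + strand): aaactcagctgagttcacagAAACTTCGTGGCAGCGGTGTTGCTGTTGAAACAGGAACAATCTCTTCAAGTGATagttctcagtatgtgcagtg
Atp6v1h-204 without it: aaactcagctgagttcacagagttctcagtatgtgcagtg
Lamp2-201 (chrX:38405526-38405570, - strand): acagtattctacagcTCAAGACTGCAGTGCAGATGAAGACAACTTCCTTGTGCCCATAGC
Lamp2-203 (chrX:38402236-38402280, - strand): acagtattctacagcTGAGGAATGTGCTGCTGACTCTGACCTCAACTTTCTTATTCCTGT
Lamp2-202 (chrX:38421806-38421850, - strand): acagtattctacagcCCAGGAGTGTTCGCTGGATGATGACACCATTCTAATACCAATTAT

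In Psap, the 9-base exon was included in 76.0% of the TPM in replicate 1 and 78.8% in replicate 2, and in 76.6% and 78.0% on the second quantification. The share thus barely moved while the level of the gene did. The exon lies within the saposin B part of the precursor in the mammalian gene. In Atp6v1h, the 54-base exon was included in 27.2% and 26.5% of the TPM, and in 34.7% and 35.3% on the second quantification. Here the quantifications differed by more than the libraries. The 3 Lamp2 transcripts share their first 1109 coding bases and then end in different last exons, which encode the membrane span and the short tail in the cytosol. Lamp2-201 held 43.5% and 46.9% of the TPM in replicates 1 and 2, Lamp2-203 28.8% and 30.1%, and Lamp2-202 27.5% and 22.9%, so that all 3 ends were in use in the cortex and kept the same order in both libraries.

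**Figure D5:**
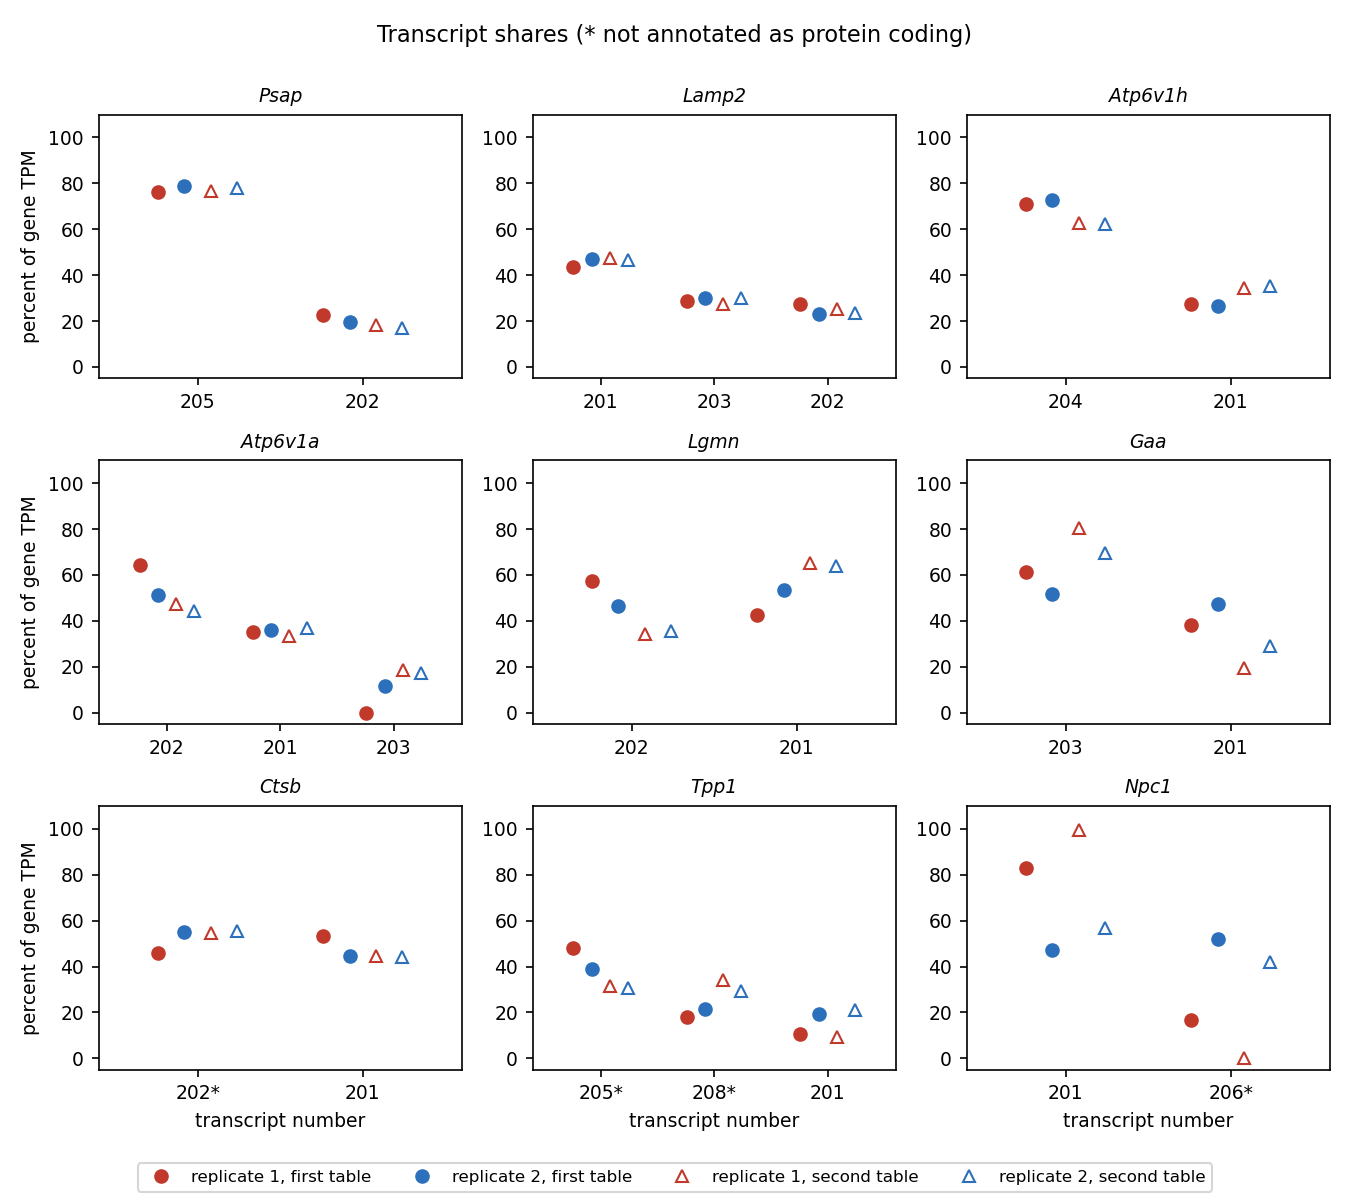
Share of the TPM of 9 lysosomal genes given to each transcript (percent of gene TPM, transcripts at 10% or more in any table); red is replicate 1 and blue replicate 2, filled circles are the first quantification and open triangles the second. Psap, Lamp2 and Atp6v1h have shares that differ little between libraries, whereas those of Npc1, Lgmn and Gaa differ both between the libraries and between the quantifications.

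In a few genes much of the TPM came from short transcripts with no coding label. Ctsb-202, a retained intron form of 801 bases, held 46.1% and 54.9% of the Ctsb TPM in replicates 1 and 2 but 10.7% and 15.2% of its fragments, since TPM divides by length. Counting the coding transcript Ctsb-201 alone, the gene was at 201 and 196 TPM. In Tpp1, a peptidase lost in a human childhood storage disease, the gene stood at 99.7 TPM in replicate 1 and 54.9 TPM in replicate 2, yet its 1 coding transcript was at 10.4 and 10.7 TPM. That transcript held 10.5% and 19.5% of the TPM, and 43.4% and 61.6% of the fragments. The gap between the libraries in Tpp1 therefore lay in its noncoding transcripts, above all Tpp1-205 (759 bases) with 48.0 and 21.3 TPM on the first quantification. On the second, the noncoding Tpp1-208 held the largest share in replicate 1 (34.3%) and Tpp1-205 in replicate 2 (30.7%), so the leading transcript depended on the quantification. Scaled like the genes, the coding part had a log2 ratio of 0.06.

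Npc1 also shifted between the libraries, but unlike in Tpp1 the coding part moved, and the noncoding share was higher in replicate 2. The retained intron transcript Npc1-206 held 16.7% of the TPM in replicate 1 and 52.2% in replicate 2 on the first quantification. The coding Npc1-201 was at 7.01 and 4.56 TPM. On the second quantification Npc1-201 led in both libraries, with 99.5% and 56.7% of the TPM. Scaled like the genes, the coding part had a log2 ratio of 0.70, past the 1.5-fold line, where the whole gene was at 0.28. Reads of Npc1 and of Rmc1, which overlaps 511 of its exon bases on the other strand, cannot be told apart there without strand, and the sources used here do not state its use. The same holds for Ctsb with Fdft1 (774 bases) and for Ctsa with Pltp (495 bases), a gene at 103 and 61.4 TPM. Ctsd shares 808 exon bases with Gm49369 on its own strand, a gene listed at 0 in both gene tables, and 66.8% of its 31-base words are unique to it, the lowest share of the 37, followed by Ctsl with 71.8%.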

How the data were processed

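The members and lists were chosen with earlier results of these data known. Expected counts (gene and first transcript tables) and estimated counts (second transcript table) were deposited without normalization, on mm10 with GENCODE M21, per the deposited notes. The TPM and the isoform percent of gene TPM were computed by the authors, per the file headers, as was the effective length in bases. The column layouts are those that RSEM and kallisto write; the sources used here state no tool, version or use of strand. Rows that name no gene (26248 numeric, 97 spike-ins) were left out; their share was 1.73e-05% in replicate 1 and 3.35e-05% in replicate 2.

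Expected counts were rounded to whole numbers. Log2 ratios of replicate 1 over replicate 2 used CPM plus 0.5 at TMM sizes (edgeR 4.0.16, R 4.3.3) for genes averaging at least 1 CPM, with 95% Clopper-Pearson intervals that cover counting error only, since the libraries carry no molecular identifiers. Quantifications were compared by log2 of TPM plus 0.1. The script was tested on simulated data. Alternatives used DESeq2 1.42.0 size factors, total counts, other filters and pseudocounts, the second table, and a lowess trend (statsmodels 0.14.6, fraction 0.3) on GC content and length. All members were named; values were given per library, and of other lysosomal genes for the 2 highest of each list, the lowest where below 1 TPM and the pump isoforms. A gene that this rule names is not reported here. Sequences came from RefSeq (GRCm38.p6 promoters) and GENCODE M21 transcripts, matched by symbol.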

Additional observations from a re-analysis of the deposited data

How the results depend on the processing

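No paired analysis was possible because the series has 1 group. Without replicate 2 and without replicate 1, the median level was 84.0 and 105 TPM for proteases, 12.2 and 16.3 TPM for glycosidases, 48.9 and 51.4 TPM for lipid genes, 56.8 and 30.9 TPM for membrane genes, 207 and 241 TPM for pump genes, and 77.3 and 79.5 TPM for all 37 genes. On the second quantification, the mean of both libraries' medians was 71.2 TPM for proteases (94.5 on the gene tables), 10.7 TPM for glycosidases (14.3), 40.2 TPM for lipid genes (50.1), 173 TPM for pump genes (224) and 56.7 TPM for all 37 (78.4), in the direction of the general offset between the quantifications. The median of all 37 was 72.1 TPM without Cst3 and 65.5 TPM with coding transcripts alone, an alternative chosen after seeing the data, as was the centring of the quantifications on the median gene. A minimum of 5 CPM leaves 11403 genes and 36 members. Of these 11403 genes, 340 were at least 1.5-fold lower in replicate 1, against 582 of 14649 genes at a minimum of 1 CPM. No filter on low counts moved Tpp1 past the 1.5-fold line (log2 ratio 0.60), and removal of the GC and length trend moved Tfeb under it (0.36). With coding transcripts alone, Npc1 was past the line (0.70). No other member changed side under the alternatives run. Total counts moved the median log2 ratio of all genes to -0.09 and of the members to -0.15. Lamp1 stayed between 2.41 and 2.54, Mcoln1 between 0.83 and 0.97, Atp6v0d1 between 0.81 and 0.93 and Psap between -0.81 and -0.66. Between the quantifications, 2 members (Ctsf and Ctsh) were apart without replicate 2 and 0 without replicate 1. The main transcript was coding in 35 members without replicate 2 and 34 without replicate 1, and in 35 on the second quantification. Gla, Galc and Tfeb, at the lowest counts, have the widest counting intervals.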
